A study of Mus musculus with 6 samples.

Results

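Genes for the proteins of the mitochondrial ribosome were followed in mouse embryonic stem cells with and without an intact METTL3. They were taken by name: every symbol that begins with Mrpl (large subunit) or Mrps (small subunit), followed by a number and at most 1 further letter. The rule found 78 of the 24984 symbols in the count tables, 49 Mrpl and 29 Mrps. All 49 Mrpl genes and 27 of the Mrps genes passed the filter on low counts. The remaining Mrps genes, Mrps10 and Mrps23, were almost without counts: Mrps10 had 1 count in WT replicate 2 and 0 elsewhere, and Mrps23 had 0 in all 6 libraries, which allows up to 0.0738 CPM (counts scaled to a library size in common) in the deepest library and 0.128 CPM in the shallowest, for counting error only. Whether the annotation used for counting holds these 2 genes in full is not known, so the counts and the limit are not read as levels of expression.

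The cells were the E14TG2a line, an established mouse embryonic stem cell line, grown in the serum-free medium N2B27. WT cells were unmodified. KO was a METTL3 knockout line made by CRISPR/Cas9 disruption of the endogenous gene, and D395A was a line with a METTL3 point mutation integrated with CRISPR/Cas9 by homology-mediated end joining. METTL3 is the methyltransferase behind most N6-methyladenosine (m6A) in mRNA, and D395 lies in its catalytic motif. Each genotype had 2 libraries, and no label names separate clones or cultures, so every p-value rests on the spread between these 6 libraries alone, which may be technical. An effect of METTL3 and the history of each edited line cannot be told apart.

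Mammalian mitochondria translate a small set of respiratory chain proteins from their own genome on a ribosome of their own. Its rRNAs come from the mitochondrial genome, whereas all of its proteins are encoded in the nucleus, made in the cytosol and imported. Some of these proteins descend from bacterial ribosomal proteins, and others are found only in mitochondria. The 2 subunits must be supplied together, which makes the relative levels of their many genes a question of its own.

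Gene counts per library ranged from 22859491 (D395A replicate 1) to 40476809 (WT replicate 1), and the 78 genes took 83553 to 141545 counts, 0.340% to 0.378% of each total. The WT libraries held 28.5 and 31.6 CPM of Mettl3, the KO libraries 7.82 and 6.17 CPM and the D395A libraries 21.1 and 23.4 CPM, so KO was lowest. Of the assigned and unassigned total, reads that the counting assigned to no feature made up 30.2% in both WT libraries. They made up 31.1% and 22.3% in the KO libraries and 37.3% and 33.8% in the D395A libraries. The rRNA precursor Rn45s took 10.8% to 16.7% of gene counts, highest in KO. All 6 embryonic stem cell markers looked at (Pou5f1, Nanog, Sox2, Esrrb, Zfp42 and Dppa5a) were present in every library, with summed levels of 3072 and 3104 CPM (WT), 3940 and 3949 CPM (KO) and 1822 and 1873 CPM (D395A). The summed level of 6 markers each lay between 56.2 and 90.7 CPM for neural cells, 11.7 and 44.0 CPM for extraembryonic endoderm, 3.47 and 21.7 CPM for mesoderm, 51.0 and 76.7 CPM for trophoblast and 3.41 and 7.39 CPM for fibroblasts. The neural and mesoderm sums were highest in WT and the endoderm and trophoblast sums in D395A, but members of a list went different ways. Tubb3 was highest in WT (45.8 and 42.8 CPM, beside 17.3 and 17.6 CPM in D395A). Nes was lower in both D395A libraries than in any WT or KO library. Both genes thus set the neural sum of WT above that of D395A, whereas Pax6, Sox1, Neurod1 and Map2 were highest in D395A. Foxa2 went from 0.0738 and 0.138 CPM in WT to 20.2 and 22.5 CPM in D395A and Dab2 was highest in KO, whereas Gata4 and Gata6 were highest in WT. At 0 in both libraries of a group were Col3a1 (WT and KO), Dcn (WT), Postn (KO) and Elf5 (D395A). Their part in the changes described here was not tested. In bulk RNA, fewer cells of a type and less RNA per cell cannot be told apart.

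In WT, levels scaled by exon length spanned a wide range within each subunit, although the proteins are needed in equal numbers apart from the L12 stalk. The median was 24.8 CPM per kb for Mrpl and 21.2 CPM per kb for Mrps. Mrpl42 was highest at 116 CPM per kb, followed by Mrpl12, the stalk protein present in several copies per ribosome, at 95.0 CPM per kb. Mrpl48 was the lowest Mrpl gene at 5.74 CPM per kb. Among Mrps genes that passed the filter, Mrps24 was highest at 85.0 CPM per kb and Mrps26 lowest at 3.77 CPM per kb. The Mrps26 value is divided by an annotated exon length of 4278 bp, so annotation enters this order. Replicates lay close together: the median absolute log2 ratio of the 2 libraries was 0.06 (WT), 0.07 (KO) and 0.10 (D395A) over Mrpl genes and 0.05, 0.08 and 0.10 over Mrps genes, against 0.09, 0.11 and 0.14 over all genes tested.

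The promoters of these genes are shown because many carry the letters of 3 motifs that nuclear genes for mitochondrial proteins are known for. The RefSeq promoter table (GRCm38.p6, 250 bases before to 50 bases after a start) held 75 promoters for 69 of the 78 genes. Both strands were searched for GCGCANGCG (nuclear respiratory factor NRF1), CCGGAAGT (ETS factors such as GABP) and AAGATGGC (YY1). The NRF1 letters were in 16 of the 75 promoters (21.3%, against 6.25% of all 32851 promoters in the table), the ETS letters in 12 (16.0%, against 3.89%) and the YY1 letters in 12 (16.0%, against 2.75%). At least 1 of the 3 was in 37 (49.3%, against 11.8%), and matches of different motifs shared no bases in any of them. The promoters of these genes were also richer in G and C (59.0%, against 53.8%), and the part of base composition in the matches was not tested. The 250 bases before the start are printed 5′ to 3′ on the strand of the gene for 6 genes the results turn on, with motif letters in capitals. In their stretches Mrpl10 (chr11:97041332-97041581, plus strand) and Mrpl45 (chr11:97315466-97315715, plus strand), which moved in opposite directions in the mutant lines, hold the NRF1 letters. Mrpl43 (chr19:45006443-45006692, minus strand) and Mrps26 (chr2:130563507-130563756, plus strand) hold the ETS letters, Mrps12 (chr7:28741822-28742071, minus strand) holds the YY1 letters, and Mrpl24 (chr3:87919294-87919543, plus strand), which fell most, holds none. Matches that reach past the printed bases are not in capitals. Mrps26 has 2 such matches to the NRF1 letters at its start, and Mrpl45 has a further match past its start.
Mrpl10: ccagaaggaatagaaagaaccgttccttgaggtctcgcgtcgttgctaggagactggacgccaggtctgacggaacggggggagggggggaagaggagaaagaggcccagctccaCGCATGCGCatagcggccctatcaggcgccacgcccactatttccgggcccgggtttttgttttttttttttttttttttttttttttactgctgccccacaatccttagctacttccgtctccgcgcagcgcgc
Mrpl45: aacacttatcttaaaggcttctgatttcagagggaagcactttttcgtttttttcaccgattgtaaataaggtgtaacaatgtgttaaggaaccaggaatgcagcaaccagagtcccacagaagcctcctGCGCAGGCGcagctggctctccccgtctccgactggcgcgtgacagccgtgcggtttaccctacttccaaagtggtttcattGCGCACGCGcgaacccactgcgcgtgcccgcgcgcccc
Mrpl43: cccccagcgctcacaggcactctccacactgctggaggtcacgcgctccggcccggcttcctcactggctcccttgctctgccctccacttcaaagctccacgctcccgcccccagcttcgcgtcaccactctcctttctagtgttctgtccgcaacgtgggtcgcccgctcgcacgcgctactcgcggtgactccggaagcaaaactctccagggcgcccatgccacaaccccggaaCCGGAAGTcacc
Mrps26: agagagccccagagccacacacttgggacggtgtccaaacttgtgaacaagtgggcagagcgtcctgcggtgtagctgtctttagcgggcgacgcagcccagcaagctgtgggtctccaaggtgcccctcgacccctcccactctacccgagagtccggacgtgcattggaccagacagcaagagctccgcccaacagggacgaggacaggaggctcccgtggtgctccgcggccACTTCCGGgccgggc
Mrps12: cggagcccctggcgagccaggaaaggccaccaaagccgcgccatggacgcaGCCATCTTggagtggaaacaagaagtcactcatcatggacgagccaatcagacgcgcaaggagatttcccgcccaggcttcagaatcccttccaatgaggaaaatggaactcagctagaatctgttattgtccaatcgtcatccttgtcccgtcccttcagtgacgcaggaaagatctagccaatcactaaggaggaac
Mrpl24: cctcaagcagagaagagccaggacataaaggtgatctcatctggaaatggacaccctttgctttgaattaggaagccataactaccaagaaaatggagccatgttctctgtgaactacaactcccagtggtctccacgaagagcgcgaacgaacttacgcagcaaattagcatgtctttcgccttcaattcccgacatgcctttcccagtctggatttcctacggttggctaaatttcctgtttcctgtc

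The genes with and without these letters spanned both directions of change. The median log2 fold change of KO against WT was 0.13 for the 16 genes with the NRF1 letters, 0.06 for the 12 with the ETS letters, 0.05 for the 12 with the YY1 letters and -0.05 for the 30 tested genes whose promoters held none. For D395A against WT the medians were -0.07, 0.11, -0.09 and 0.03. A match describes the sequence only and does not show that a factor binds there.

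The comparison of KO with WT asks what differs in the knockout line. Both subunits were split between genes that rose and genes that fell. Of 49 Mrpl genes, 21 rose and 15 fell (edgeR quasi-likelihood test, Benjamini-Hochberg adjusted p under 0.05 over all 15663 genes tested), and of 27 Mrps genes 14 rose and 6 fell. Among all genes tested 33.6% were called higher and 32.6% lower. Called higher were 42.9% of the Mrpl and 51.9% of the Mrps genes, and called lower 30.6% and 22.2%. The median log2 fold change was 0.08 for Mrpl and 0.28 for Mrps, beside 0.01 over all genes. The Mrps median was 0.19 without WT replicate 2. Without the 16 Mrpl genes whose exons overlap an exon on the opposite strand, 8 of 33 fell and the Mrpl median was 0.16.

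Among large subunit genes that rose in KO, Mrpl46, which codes for a protein found only in mitochondrial ribosomes, went from 13.7 and 14.5 CPM in WT to 37.3 and 39.9 CPM in KO. Both KO libraries lay above 2 times the WT level, with a log2 fold change of 1.46 ± 0.10 (± SE, adjusted p = 4.0e-08). Mrpl43, another mitochondria-specific protein, went from 39.7 and 38.5 CPM in WT to 98.0 and 99.8 CPM in KO (1.34 ± 0.07, adjusted p = 2.8e-09). Its exons overlap those of Twnk, the mitochondrial DNA helicase gene on the opposite strand, over 27.5% of their length, and Twnk itself averaged 37.8 CPM (WT) and 37.7 CPM (KO). Mrpl16, the homologue of a bacterial protein near the peptidyl transferase centre, went from 22.7 and 23.2 CPM in WT to 50.9 and 55.5 CPM in KO (1.21 ± 0.07, adjusted p = 1.9e-08). These 3 were the Mrpl genes that rose at least 2-fold. Mrpl54 rose by 0.97 ± 0.11, Mrpl14, a protein of the subunit interface, by 0.95 ± 0.12, and Mrpl20, the homologue of an early-assembling bacterial protein, by 0.80 ± 0.08. For all 6 the WT and KO libraries did not overlap. Here and below, genes named for the largest called changes were picked by their calls, so a lack of overlap is no separate support. The share of all genes without overlap was not counted.

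The largest fall was in Mrpl24, whose bacterial homologue starts the assembly of the large subunit. It went from 96.5 and 94.3 CPM in WT to 40.1 and 42.7 CPM in KO (-1.20 ± 0.06, adjusted p = 5.2e-09). Mrpl47, the mitochondrial form of L29 at the exit of the peptide tunnel, went from 43.2 and 42.1 CPM to 21.3 and 20.9 CPM (-1.02 ± 0.07, adjusted p = 1.0e-07). Both fell at least 2-fold with no overlap between the groups, and in both, exons lie opposite those of other genes: 38.2% of Mrpl24 opposite Rrnad1, and 18.1% of Mrpl47 opposite Actl6a and Ndufb5. Rrnad1 averaged 7.81 CPM (WT) and 7.91 CPM (KO), whereas Actl6a fell by 0.80 ± 0.07 on the log2 scale. Mrpl9 (-0.79 ± 0.08), Mrpl35 (-0.68 ± 0.06), Mrpl22 (-0.66 ± 0.07) and Mrpl55 (-0.64 ± 0.09) followed. Mrpl22 is a tunnel protein, and Mrpl9 and Mrpl35 are homologues of the bacterial proteins of the same numbers.

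Mrps2, the homologue of bacterial S2 and the second most abundant Mrps gene per length in WT, had the largest rise among small subunit genes. It went from 125 and 123 CPM in WT to 256 and 284 CPM in KO (1.12 ± 0.08, adjusted p = 5.4e-08). Mrps26, a mitochondria-specific protein, went from 15.9 and 16.3 CPM in WT to 35.7 and 34.1 CPM in KO (1.11 ± 0.08, adjusted p = 4.9e-08). Mrps12, the homologue of the S12 protein of the decoding centre, went from 19.3 and 20.2 CPM in WT to 42.4 and 41.3 CPM in KO (1.08 ± 0.07, adjusted p = 3.5e-08). The 3 genes more than doubled, with no overlap between the groups, and no Mrps gene fell by as much. Mrps34, a mitochondria-specific protein needed for a stable small subunit, rose by 0.90 ± 0.08, and Mrps6 by 0.83 ± 0.14. The largest fall was in Mrps31 on chromosome 8, from 65.8 and 65.2 CPM in WT to 38.9 and 36.7 CPM in KO (-0.79 ± 0.06, adjusted p = 2.2e-07). That chromosome stood lower as a whole, as given below. Mrps22 (-0.59 ± 0.07), Mrps7 (-0.53 ± 0.07), Mrps16 (-0.51 ± 0.08) and Mrps18c (-0.31 ± 0.09) also fell. Mrps7 belongs to the head of the small subunit, and Mrps16 is the homologue of bacterial S16. The fall of Mrps18c was not called without WT replicate 1 (adjusted p = 0.069) or without KO replicate 1 (adjusted p = 0.081).

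**Figure D1:**
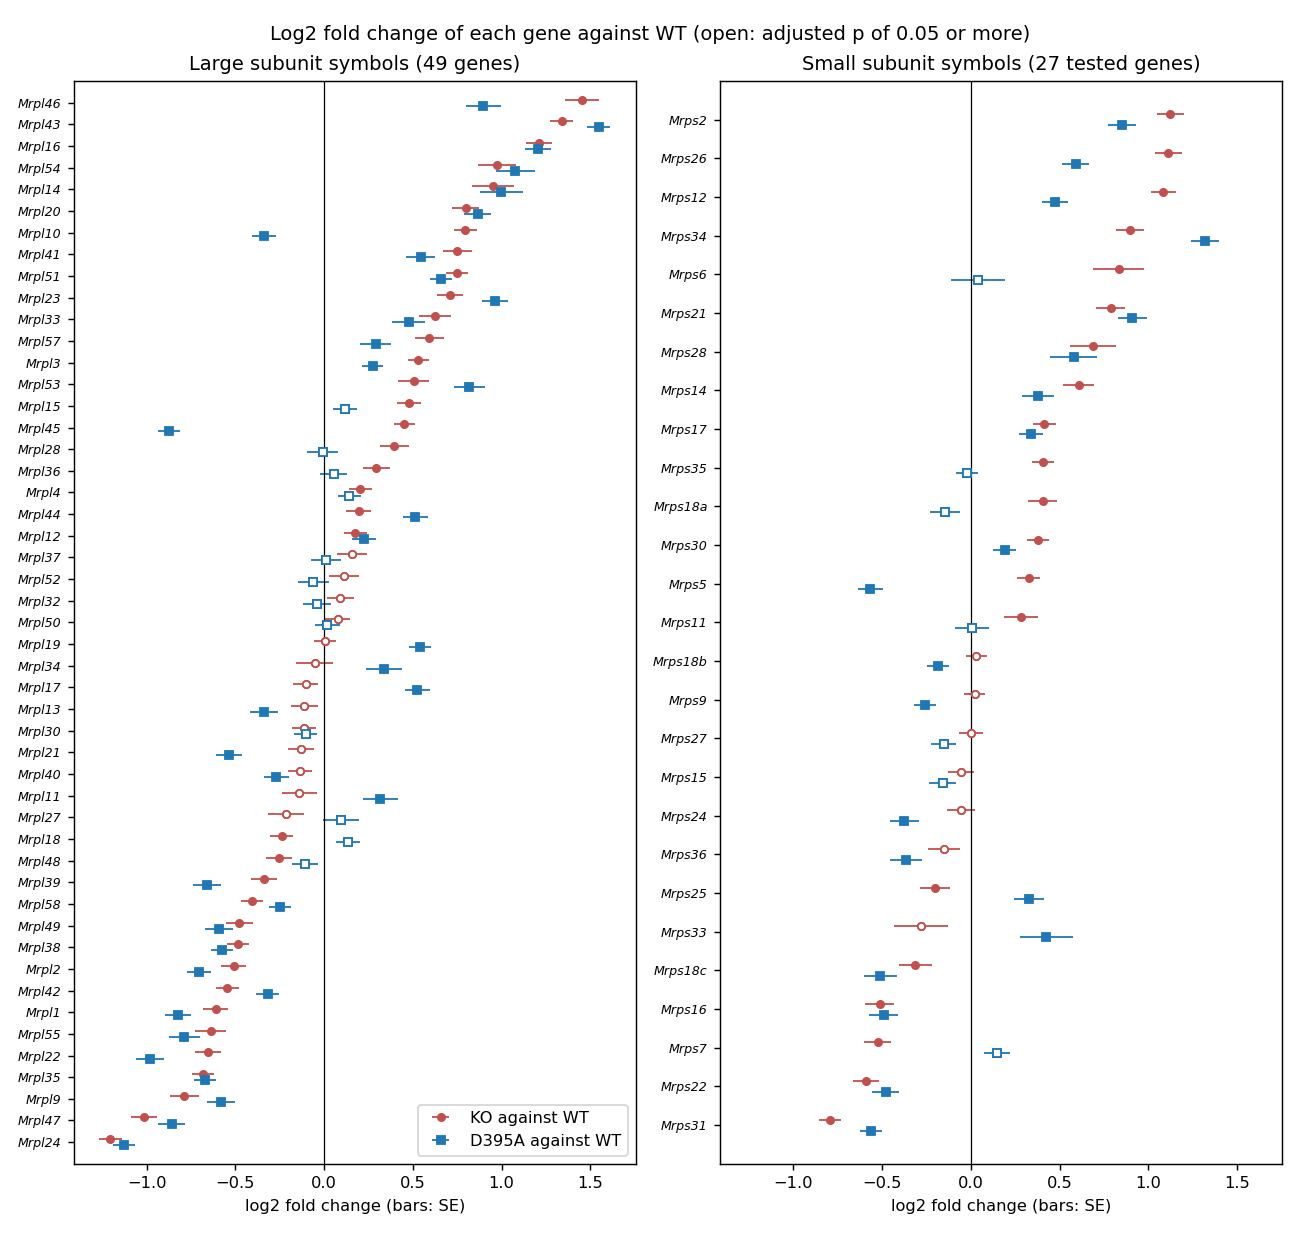
Log2 fold change against WT (x axis, bars: SE of the fit) for each large subunit gene (left) and tested small subunit gene (right), ordered by KO; circles are KO, squares are D395A, and open symbols did not pass the test. The genes run from -1.20 (Mrpl24) to 1.46 (Mrpl46) in KO, and Mrpl10, Mrpl45 and Mrps5 show a KO symbol right of 0 with a D395A symbol left of it.

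The comparison of D395A with WT asks the same of the line with the catalytic substitution. It uses the same WT libraries as the comparison of KO with WT, so the values are set side by side and are not separate evidence. Of 49 Mrpl genes 19 rose and 18 fell, and of 27 Mrps genes 11 rose and 9 fell. Among all genes tested 36.3% were called higher and 34.0% lower. The shares were 38.8% and 36.7% for Mrpl and 40.7% and 33.3% for Mrps, near those of all genes. The median log2 fold change was 0.02 for Mrpl, 0.01 for Mrps and 0.02 over all genes, and without the genes that overlap on the opposite strand 10 Mrpl genes fell and the Mrpl median was 0.12.

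Mrpl43 had the largest rise in D395A, with 119 and 109.9 CPM beside 39.7 and 38.5 CPM in WT (1.55 ± 0.07, adjusted p = 6.8e-10). Twnk on its opposite strand stood at 43.5 CPM in D395A (0.19 ± 0.09, adjusted p = 0.081). Mrpl16 had 50.8 and 55.0 CPM in D395A, again above both WT libraries (1.21 ± 0.07, adjusted p = 1.8e-08). Mrpl54 had 37.0 and 28.4 CPM in D395A beside 15.4 and 15.3 CPM in WT (1.08 ± 0.11), Mrpl14 rose by 1.00 ± 0.12, Mrpl23 by 0.96 ± 0.07 and Mrpl46 by 0.90 ± 0.10. Mrpl23, like Mrpl22 and Mrpl24, is the homologue of a protein around the exit of the peptide tunnel. Mrpl24 was again the gene that fell most, to 44.5 and 42.9 CPM (-1.13 ± 0.06, adjusted p = 8.6e-09), while Rrnad1 on its opposite strand rose to 15.4 CPM (0.97 ± 0.23, adjusted p = 0.0021). Mrpl22 (-0.98 ± 0.08), Mrpl45 (-0.88 ± 0.06), Mrpl47 (-0.86 ± 0.07), Mrpl1 (-0.82 ± 0.07) and Mrpl55 (-0.79 ± 0.09) followed. Mrpl45 sits at the tunnel exit and faces the inner membrane, and Mrpl1 is the homologue of the protein of the L1 stalk.

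Of the small subunit genes, Mrps34 rose most in D395A, with 35.3 and 33.9 CPM beside 14.4 and 13.3 CPM in WT (1.32 ± 0.08, adjusted p = 1.3e-08). It was the only Mrps gene past 2-fold in D395A, and its 6 libraries formed 3 levels in the order WT, KO, D395A with no overlap. Mrps21 rose by 0.91 ± 0.08, and Mrps2, at 210 and 237 CPM, by 0.85 ± 0.08. Mrps26 rose by 0.59 ± 0.08 and Mrps28 by 0.58 ± 0.13, the latter by 0.35 without D395A replicate 1. Mrps5 (-0.57 ± 0.07), Mrps31 (-0.56 ± 0.06), Mrps18c (-0.51 ± 0.09), Mrps16 (-0.49 ± 0.08) and Mrps22 (-0.48 ± 0.07) fell. Mrps5 is the homologue of bacterial S5, at the mRNA entry side. Mrps31 had 43.7 and 45.0 CPM in D395A, between the KO and the WT libraries.

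**Figure D2:**
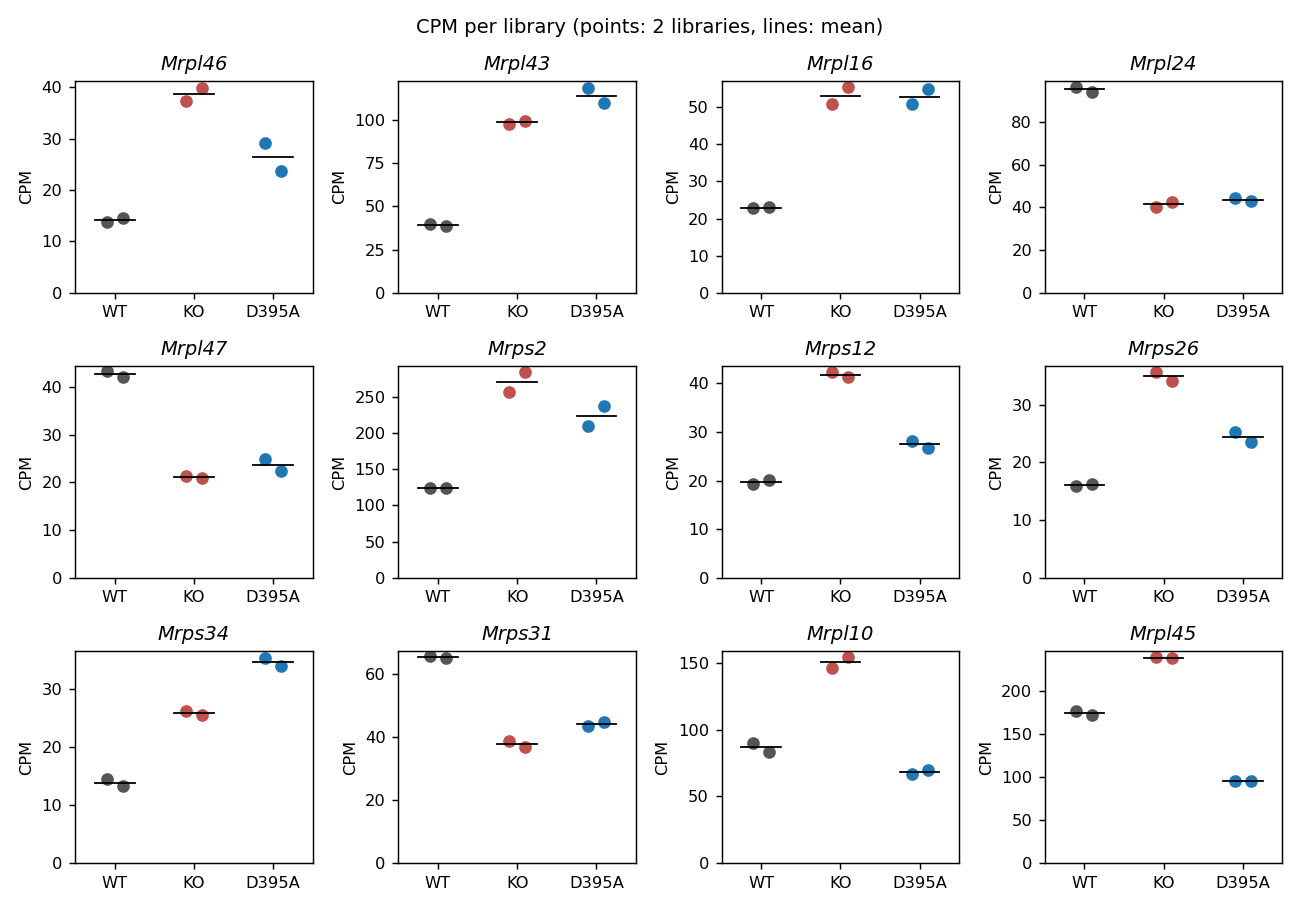
TMM-scaled CPM (y axis from 0) of 12 genes in each library (points) of WT, KO and D395A, with group means as lines. Mrpl46, Mrpl43, Mrpl16, Mrps2, Mrps12, Mrps26 and Mrps34 lie above WT and Mrpl24, Mrpl47 and Mrps31 below it in both mutant lines, while Mrpl10 and Mrpl45 lie above WT in KO and below it in D395A.

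The lines were compared directly to test where they differ. Of 49 Mrpl genes 11 were higher and 15 lower in D395A than in KO, and of 27 Mrps genes 5 were higher and 13 lower. Among all genes tested 26.5% were called higher and 23.8% lower, beside 22.4% and 30.6% of Mrpl and 18.5% and 48.1% of Mrps. The Mrps median was -0.20 and the Mrpl median -0.06, beside 0.04 over all genes. The count of lower Mrps genes was 8 without KO replicate 2, and that of lower Mrpl genes was 9 without D395A replicate 2. Without the genes that overlap on the opposite strand, 6 Mrpl and 3 Mrps genes were higher.

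Mrpl45 differed most between the lines: it had 239 and 239 CPM in the KO libraries and 95.2 and 95.6 CPM in those of D395A, with WT between them at 178 and 173 CPM (-1.33 ± 0.06 for D395A against KO, adjusted p = 3.1e-09). Mrpl10, which anchors the L12 stalk, had 146 and 154 CPM (KO), 66.8 and 69.9 CPM (D395A) and 90.0 and 83.1 CPM (WT) (-1.14 ± 0.07, adjusted p = 2.6e-08). Against WT, Mrpl45 rose by 0.45 ± 0.06 in KO and Mrpl10 by 0.80 ± 0.06, and they fell by 0.88 ± 0.06 and 0.34 ± 0.07 in D395A. No libraries of different groups overlapped for either gene. Mrpl46 (-0.56 ± 0.09) and Mrpl21 (-0.41 ± 0.08) were the next lowest in D395A relative to KO. Higher in D395A were Mrpl17 (0.63 ± 0.07), Mrpl19 (0.53 ± 0.06), Mrpl11 of the stalk base (0.46 ± 0.10) and Mrpl34 (0.39 ± 0.10). Exons of Mrpl19 lie opposite those of Gcfc2 over 39.2% of their length, and Gcfc2 was also higher in D395A than in KO (0.78 ± 0.08). Mrpl34 was not called without KO replicate 1 (adjusted p = 0.057).

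Among small subunit genes, Mrps5 had 58.5 and 54.9 CPM (KO), 30.9 and 30.3 CPM (D395A) and 44.0 and 46.6 CPM (WT). It was lower in D395A than in KO by -0.89 ± 0.07 (adjusted p = 3.3e-07), with a rise of 0.33 ± 0.07 in KO against WT. Mrps6 (-0.79 ± 0.15) and Mrps12 (-0.61 ± 0.07) were also lower, and Mrps12 had 28.1 and 26.8 CPM in D395A, above WT and below KO. Mrps33 (0.71 ± 0.15), Mrps7 (0.67 ± 0.08) and Mrps25 (0.53 ± 0.08) were higher in D395A than in KO. Mrps7 had 34.6 and 35.9 CPM in KO but 60.0 and 52.8 CPM in D395A, beside 52.1 and 49.4 CPM in WT. Mrps25 had 44.2 and 42.1 CPM (WT), 40.3 and 34.9 CPM (KO) and 57.5 and 51.2 CPM (D395A). Its fall in KO (-0.20 ± 0.08, adjusted p = 0.048) was not called without WT replicate 1 (adjusted p = 0.24), WT replicate 2 (adjusted p = 0.099) or KO replicate 2 (adjusted p = 0.39), so its opposite calls rest on all of these libraries, while its rise in D395A was 0.33 ± 0.08 (adjusted p = 0.0033). Exons of Mrps25 lie opposite those of Nr2c2 over 58.2% of their length, and Nr2c2 was higher in D395A than in KO by 0.45 ± 0.07.

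Mrpl10 and Mrpl45 are neighbours: on chromosome 11 of GRCm38, Mrpl10 spans 97041560 to 97049213 and Mrpl45 spans 97315716 to 97329920, both on the plus strand and 267 kb apart. From 500 kb before Mrpl10 to 500 kb past Mrpl45 (96541560 to 97829920), 35 other genes were tested. Against WT 19 of them were higher and 7 lower in KO, while 4 were higher and 26 lower in D395A. Between the lines 29 of the 35 were lower and 1 higher in D395A than in KO, with 34 below 0 and a median of -1.01. The pair thus differed between the lines in the same direction as 34 of their 35 neighbours. Over all genes with at least 5 tested neighbours within 500 kb, 108 of 12836 (0.841%) had a neighbour median for D395A against KO as low as that of Mrpl45. The 108 include Mrpl45 itself, and genes near each other share neighbours, so they are not 108 separate places. In D395A against WT, the neighbour median of Mrpl45 was -0.60, and 7.68% of genes had one at or below it. In KO against WT it was above 0, at 0.40, and 87.0% of genes had one at or below it. The region was chosen after the values of the pair were seen.

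The same was measured around the other genes. The medians of the neighbours of Mrps5 on chromosome 2 were 0.46 in KO and -0.42 in D395A against WT and -0.81 between the lines, and those around Mrps25 on chromosome 6 were -0.54, 0.10 and 0.36. So all 4 genes called in opposite directions against WT (Mrpl10, Mrpl45, Mrps5 and Mrps25) had neighbour medians of the same sign as their own change in all 3 comparisons. Mrpl10 and Mrpl45 share neighbours, and opposite signs against WT fix the sign of a gene between the lines. The share over all genes called in opposite directions was not counted, so this match is not read as particular to these genes. Of the 63 genes of the mitochondrial ribosome with at least 5 tested neighbours, 40 in KO and 37 in D395A (against WT) and 41 between the lines matched the sign of their neighbours, which is 63.5%, 58.7% and 65.1%, beside 58.4%, 58.3% and 60.0% over all genes. Across these 63 genes the change of a gene and its neighbours' median correlated with a Pearson r of 0.33, 0.26 and 0.55, beside 0.25, 0.22 and 0.33 over all genes; without Mrpl10 and Mrpl45 the r of 0.55 was 0.40. These are descriptions across genes, which share libraries and, for near genes, neighbours.

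Chromosomes 8 and 11 as wholes stood lower in both lines, with medians of -0.48 and -0.42 over all genes tested there in KO and -0.35 and -0.49 in D395A. Of 10 tested mitochondrial ribosomal protein genes on chromosome 11, 3 rose and 5 fell in KO and 1 rose and 7 fell in D395A, with medians of -0.31 and -0.36. Of all genes tested on this chromosome, 18.4% were called higher and 54.6% lower in KO and 16.4% and 58.1% in D395A, so the few members there leaned the way of the chromosome. Mrpl22, Mrpl55, Mrpl38 and Mrpl58 there fell in both lines. The shift of the chromosome and a change of these genes cannot be told apart. The same holds for Mrps31 on chromosome 8, which fell in both lines, with neighbour medians of -0.55 in KO and -0.34 in D395A. Mrpl34, also on chromosome 8, was not called in KO and rose in D395A. Of the 64 tested genes on chromosomes other than 8 and 11, 32 rose and 15 fell in KO (median 0.18) and 28 rose and 19 fell in D395A (median 0.05), beside medians of 0.08 and 0.10 over all genes on those chromosomes, of which 36.0% were called higher and 29.1% lower in KO and 39.1% and 30.6% in D395A.

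Summed over genes, the groups lay closer together for the large than for the small subunit symbols. The sums follow the symbols, so the Mrps sum holds Mrps30, Mrps18a and Mrps36, whose proteins sit elsewhere, as given below. Mrps30 averaged 95.8 CPM (WT), 124.6 CPM (KO) and 109.2 CPM (D395A). For Mrps18a the means were 28.3, 37.4 and 25.6 CPM, and for Mrps36 17.9, 16.1 and 13.9 CPM. The Mrpl genes summed to 2397 and 2322 CPM (WT), 2506 and 2550 CPM (KO) and 2392 and 2268 CPM (D395A). The Mrps genes summed to 1082 and 1065 CPM (WT), 1295 and 1330 CPM (KO) and 1166 and 1161 CPM (D395A). The KO libraries were thus the highest in both sums, and D395A overlapped WT for Mrpl only. The ratio of the sums was 2.22 and 2.18 (WT), 1.94 and 1.92 (KO) and 2.05 and 1.95 (D395A). With 2 libraries a group no permutation test of a sum can reach the threshold, and none is given. Mrps2 made up much of the difference in the Mrps sum. Of a rise in the mean Mrps sum over WT of 238.6 CPM in KO, Mrps2 gave 146.2 CPM. In D395A it gave 99.5 CPM beside a total of 90.2 CPM. Without Mrps2 the Mrps sum was 949.7 ± 11.2 CPM (WT; mean ± SD, n = 2), 1042 ± 4.88 CPM (KO) and 940.4 ± 22.7 CPM (D395A).

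**Figure D3:**
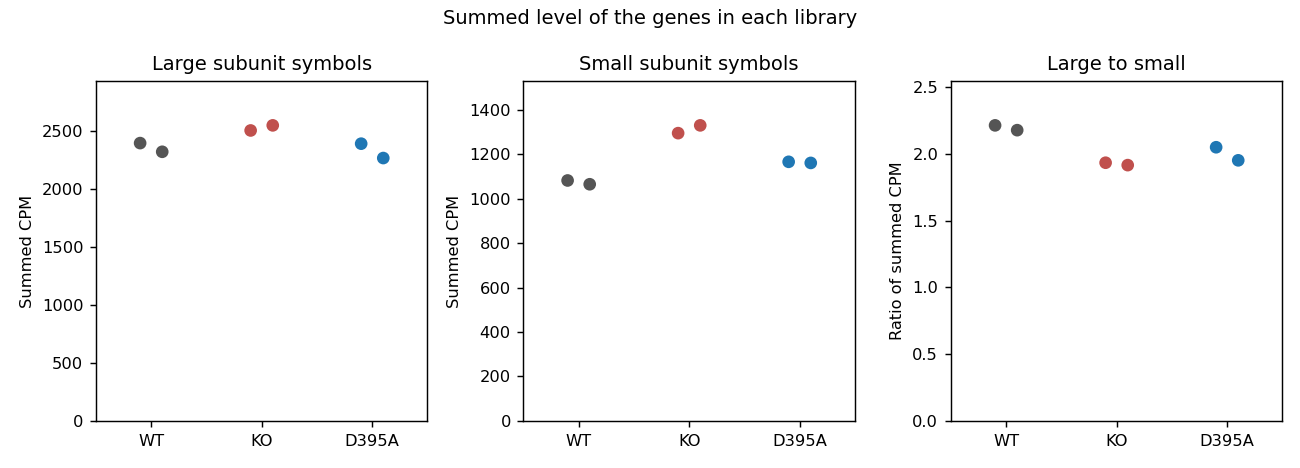
Summed CPM of the genes with large and with small subunit symbols and the ratio of the sums (y axes from 0) in each library of WT, KO and D395A. The Mrps sum is highest in KO (1295 and 1330 CPM), and the ratio is highest in WT (2.22 and 2.18).

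Some symbols do not match the place of their protein. Mrps30 and Mrps18a carry small subunit symbols although their proteins sit in the large subunit. Mrps30 had 97.3 and 94.3 CPM in WT and rose to 120.1 and 129 CPM in KO (0.38 ± 0.06, adjusted p = 1.6e-04) and to 107 and 111 CPM in D395A (0.19 ± 0.06, adjusted p = 0.017), the latter not called without WT replicate 1 (adjusted p = 0.078), WT replicate 2 (adjusted p = 0.15) or D395A replicate 2 (adjusted p = 0.052). Mrps18a rose in KO (0.40 ± 0.08) and stood at -0.14 ± 0.08 in D395A (adjusted p = 0.14). It has 2 paralogues that belong to the small subunit: Mrps18b was at 0.03 ± 0.06 in KO and -0.18 ± 0.06 in D395A (adjusted p = 0.019, but 0.11 without WT replicate 1 and 0.058 without WT replicate 2), and Mrps18c fell in both lines, as given above. The 3 paralogues thus had 3 different calls in KO. Exons of Mrps18b lie opposite those of Gm16279 over 59.1% of their length. Mrps36, whose protein is now known as a part of the 2-oxoglutarate dehydrogenase complex, stood at -0.15 ± 0.09 in KO (adjusted p = 0.15) and fell by 0.36 ± 0.09 in D395A (adjusted p = 0.0032). Mrpl58, a hydrolase that frees stalled peptides and is built into the large subunit, fell in KO (-0.41 ± 0.06) and D395A (-0.25 ± 0.06). It lies on chromosome 11, and its change cannot be told apart from the shift of that chromosome. Mrpl12, whose free form also binds the mitochondrial RNA polymerase, was at 0.18 ± 0.07 in KO (adjusted p = 0.033, but 0.077 when scaled by library totals and up to 0.24 with a library left out) and 0.22 ± 0.07 in D395A (adjusted p = 0.0090, but 0.12 without WT replicate 2).

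The highest and lowest genes per length in WT moved as follows. Mrpl42 fell in KO (-0.55 ± 0.06) and D395A (-0.32 ± 0.06), and Mrpl48 fell in KO (-0.25 ± 0.07, not called without WT replicate 2 at an adjusted p of 0.072 or without KO replicate 2 at 0.070) and stood at -0.11 ± 0.07 in D395A (adjusted p = 0.21). Mrps24 stood at -0.06 ± 0.08 in KO (adjusted p = 0.55) and fell by 0.38 ± 0.08 in D395A. Of 43 tested genes on a list of those with a bacterial homologue, which is not complete, 20 rose and 11 fell in KO and 16 rose and 15 fell in D395A, and of the 33 others 15 rose and 10 fell in KO and 14 rose and 12 fell in D395A. The D395A counts are near the shares of all genes tested (36.3% higher and 34.0% lower). In KO 46.5% of the listed genes rose and 25.6% fell, and 45.5% of the others rose and 30.3% fell. The KO shares of all genes tested were 33.6% higher and 32.6% lower.

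A property that the choice of genes did not use went with the direction of change: the number of exons. Genes with 1 to 4 exons (in the annotated transcript with the most exons) numbered 37, of which 22 rose and 6 fell in KO and 24 rose and 7 fell in D395A, with medians of 0.50 and 0.43. Of 22 genes with 7 or more exons, 5 rose and 10 fell in KO and 1 rose and 15 fell in D395A, with medians of -0.12 and -0.51. The 17 genes with 5 or 6 exons lay between, with 8 higher and 5 lower in KO and 5 and 5 in D395A. The 1 gene of 7 or more exons that rose in D395A was Mrpl3, with 10 exons (0.27 ± 0.06), named here after its value was seen. Spearman's rho between log2 fold change and exon number over the 76 genes was -0.43 in KO and -0.61 in D395A (against WT) and -0.23 between the lines. Over all 15484 tested genes with an annotation it was -0.08, -0.14 and -0.09. Both subunits showed it, with a rho of -0.46 (Mrpl) and -0.39 (Mrps) in KO and -0.60 and -0.64 in D395A.

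Over all genes, those with 1 to 4 exons were called higher in 35.8% and lower in 23.9% of cases in KO and in 43.3% and 22.4% in D395A, and those with 7 or more in 32.5% and 36.7% and in 33.0% and 39.8%. Those with 5 or 6 exons were called higher in 34.7% and lower in 30.7% in KO, and in 38.1% and 30.1% in D395A. Exon number was looked at after the values were known, the KO and D395A values share the WT libraries, and the rho values are given as a description with no p. Over 18 other ways of processing, rho for the members ranged from -0.47 to -0.40 in KO, -0.63 to -0.57 in D395A and -0.30 to -0.17 between the lines. Transcript length, as the median over annotated transcripts, went less with the change (rho of -0.16, -0.18 and -0.04). The share of reads assigned to no feature, 30.2% in both WT libraries and 33.8% to 37.3% in D395A, differed between these groups, whereas it was 31.1% and 22.3% within KO. Its part in the relation was not tested.

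**Figure D4:**
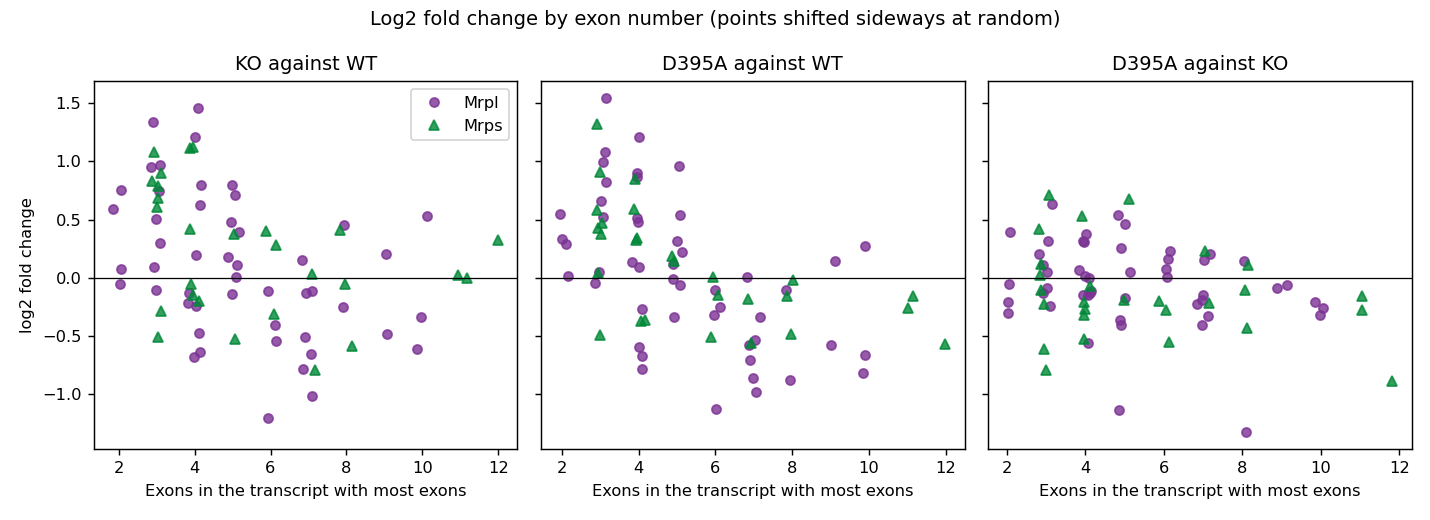
Log2 fold change (y axis) against exon number of the transcript with most exons (x axis) for 49 Mrpl and 27 Mrps genes in 3 comparisons, with points shifted sideways to separate them. Genes with few exons lie mostly above 0 and genes with 7 or more mostly below it in D395A against WT (rho of -0.61), and the spread is narrower in D395A against KO (rho of -0.23).

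Some proteins of the mitochondrial ribosome carry other symbols, and 5 of 7 symbols listed for them were in the files. Ptcd3, on the small subunit near the mRNA entrance, fell from 212 and 200.4 CPM in WT to 116 CPM in both KO libraries (-0.83 ± 0.06) and 115 CPM in both of D395A (-0.84 ± 0.06). Dap3, the GTP-binding protein of the small subunit, fell by 0.58 ± 0.07 in KO and 0.99 ± 0.07 in D395A, and Aurkaip1 fell by 0.32 ± 0.07 and 0.50 ± 0.07. Chchd1 rose by 0.95 ± 0.09 and 0.99 ± 0.09, and Gadd45gip1 of the large subunit by 0.63 ± 0.07 and 0.50 ± 0.08. Of the exon bases of Gadd45gip1 33.3% lie opposite another gene.

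Factors that build and serve the mitochondrial ribosome were called in both directions, at counts to be read against the shares of all genes tested (33.6% higher and 32.6% lower in KO, 36.3% and 34.0% in D395A). Of 27 assembly and rRNA modification factors tested, 9 rose and 10 fell in KO and 8 rose and 10 fell in D395A (medians -0.01 and 0.02), near those shares. Mrm2, a methyltransferase of the large mitochondrial rRNA, had 4.92 and 5.98 CPM (WT), 16.9 and 17.0 CPM (KO) and 10.4 and 9.37 CPM (D395A) (1.64 ± 0.12 and 0.85 ± 0.12). Mterf4, which guides an rRNA methyltransferase in assembly, rose by 0.89 ± 0.08 and 0.95 ± 0.08, with 44.6% of its exon bases opposite Sned1. The pseudouridine synthase Rpusd4 fell by 1.22 ± 0.09 in KO and 1.30 ± 0.09 in D395A, and Mrm1, another rRNA methyltransferase, fell by 1.09 ± 0.10 and 1.27 ± 0.10. Of 14 translation factors 2 rose and 6 fell in KO and 5 rose and 5 fell in D395A (medians -0.12 and -0.11). The initiation factor gene Mtif3 rose in both lines (0.44 ± 0.12 and 0.67 ± 0.12), and 18.9% of its exon bases lie opposite Gtf3a. Its KO call was lost without WT replicate 1 (adjusted p = 0.077) or KO replicate 1 (adjusted p = 0.095, at 0.23). Tsfm, the elongation factor that recharges Tufm, rose by 0.34 ± 0.08 in KO and 0.43 ± 0.08 in D395A, the former not called without WT replicate 2 (adjusted p = 0.051). Mtrf1l, a release factor, rose by 0.85 ± 0.15 in D395A and stood at 0.37 ± 0.16 in KO (adjusted p = 0.054, and 0.046 without WT replicate 1). The release factor gene Mtrf1 (-0.96 ± 0.11 and -1.04 ± 0.12) and the initiation factor gene Mtif2 (-0.60 ± 0.06 and -0.77 ± 0.07) fell in both. Rmnd1, at 34 and 15 counts in WT and 5 and 0 in KO, was called lower (adjusted p = 0.012, but 0.13 without WT replicate 1 and 0.060 without KO replicate 2), with too few counts for its fold to be read. Tufm, the main elongation factor, stood at -0.16 ± 0.07 in KO (adjusted p = 0.065, and 0.019 when scaled by library totals) and fell by 0.36 ± 0.07 in D395A.

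Among 20 mitochondrial aminoacyl-tRNA synthetases and related enzymes, which charge the tRNAs, 7 rose and 9 fell in each comparison with WT (medians -0.07 and -0.04). The rises (35%) are near the shares of all genes tested (33.6% in KO and 36.3% in D395A). The falls (45%) stand beside 32.6% in KO and 34.0% in D395A. Wars2, the tryptophan enzyme, had 8.65 and 7.17 CPM (WT), 26.2 and 29.1 CPM (KO) and 20.3 and 22.1 CPM (D395A) (1.80 ± 0.11 and 1.42 ± 0.11). Pars2, the proline enzyme, rose by 0.70 ± 0.08 in KO and 0.56 ± 0.08 in D395A. Gatc, a part of the glutaminyl-tRNA amidotransferase, rose by 0.84 ± 0.10 in D395A and stood at 0.08 ± 0.10 in KO (adjusted p = 0.52), with a difference between the lines of 0.77 ± 0.10 (adjusted p = 3.1e-05). Gatb, the partner of Gatc in the same enzyme, fell by 0.98 ± 0.10 and 0.87 ± 0.10. Of 22 genes for mitochondrial transcription and RNA processing, 6 rose and 6 fell in KO and 7 rose and 8 fell in D395A (medians -0.06 and -0.06). That is 27.3% each way in KO, beside 33.6% higher and 32.6% lower over all genes. In D395A it is 31.8% higher and 36.4% lower, beside 36.3% and 34.0%. Pnpt1, the mitochondrial polynucleotide phosphorylase, had 96.9 and 99.4 CPM (WT), 99.96 and 94.3 CPM (KO) and 289 and 275 CPM (D395A) (1.52 ± 0.06 in D395A against WT, adjusted p = 6.7e-10). It stood apart in D395A only, and was higher there than in KO by 1.54 ± 0.06. Fastkd5 rose in KO (0.89 ± 0.07) and stood at -0.07 ± 0.08 in D395A (adjusted p = 0.43), with a difference between the lines of -0.96 ± 0.08 (adjusted p = 4.3e-07). Ptcd1 rose in both (0.43 ± 0.07 and 0.65 ± 0.07). Trmt10c rose by 0.48 ± 0.07 in KO and 0.20 ± 0.07 in D395A, the latter (adjusted p = 0.024) not called by DESeq2 (adjusted p = 0.11), with no filter on low counts (adjusted p = 0.058), or without WT replicate 1 (adjusted p = 0.11), WT replicate 2 (adjusted p = 0.080) or D395A replicate 1 (adjusted p = 0.075). Mterf1b (-1.42 ± 0.27 and -1.53 ± 0.28) and the tRNA-trimming enzyme Elac2 (-0.48 ± 0.07 and -0.73 ± 0.07) fell in both.

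Transcription regulators known for control of mitochondrial genes were called in both directions. Of 14 tested, 5 rose and 5 fell in KO and 6 rose and 3 fell in D395A (medians -0.01 and 0.16). The KO shares (35.7% each way) are near those of all genes tested (33.6% higher and 32.6% lower). In D395A 42.9% rose and 21.4% fell, beside 36.3% and 34.0% of all genes. Nrf1, the gene of the factor behind the first motif, had 66.8 and 66.9 CPM in WT, with KO at 58.6 and 57.5 CPM (-0.20 ± 0.06, adjusted p = 0.0095, but 0.062 to 0.067 without WT replicate 1, WT replicate 2 or KO replicate 2) and D395A at 67.8 and 70.8 CPM (0.05 ± 0.06, adjusted p = 0.45). Gabpa, the DNA-binding subunit of GABP, stood at 0.08 ± 0.07 in KO (adjusted p = 0.31) and -0.15 ± 0.07 in D395A (adjusted p = 0.058, and 0.028 with DESeq2). Gabpb2, a partner of GABPA, fell by 0.40 ± 0.07 in D395A and by 0.22 ± 0.06 in KO, the latter (adjusted p = 0.011) not called without WT replicate 1 (adjusted p = 0.14) or KO replicate 1 (adjusted p = 0.051). Yy1 fell from 86.5 and 80.8 CPM in WT to 44.6 and 48.5 CPM in KO (-0.85 ± 0.07, adjusted p = 2.5e-07) but rose to 108 and 104 CPM in D395A (0.34 ± 0.07, adjusted p = 4.8e-04). Mycn rose in both lines (0.94 ± 0.06 and 0.50 ± 0.07). Myc fell in KO (-1.16 ± 0.29) and stood at 0.26 ± 0.28 in D395A (adjusted p = 0.42). Esrra (1.08 ± 0.11 in KO, 0.73 ± 0.11 in D395A) and Creb1 (0.41 ± 0.08 in KO, 0.94 ± 0.08 in D395A) rose in both lines. Ppargc1b fell by 0.40 ± 0.10 in KO and 0.27 ± 0.10 in D395A, the latter (adjusted p = 0.025) not called without WT replicate 1 (adjusted p = 0.056), WT replicate 2 (adjusted p = 0.13) or D395A replicate 1 (adjusted p = 0.23, at -0.12). Ppargc1a, at 2 and 0 counts in WT and 31 and 9 in D395A, was called higher (adjusted p = 0.0066, but 0.071 without WT replicate 2 and 0.13 without D395A replicate 1), with too few counts for its fold to be read. Tfam, which packages mitochondrial DNA, stood at -0.16 ± 0.07 in KO (adjusted p = 0.071, and 0.033 when scaled by library totals) and 0.07 ± 0.07 in D395A (adjusted p = 0.41). Transcripts of the mitochondrial genome itself were not analysed here.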

How the data were processed

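RNA of 6 libraries was measured by directional RNA-seq of rRNA-depleted total RNA on an Illumina HiSeq instrument, per the labels. The authors deposited 1 table of raw HTSeq counts per library, by gene symbol. Per the submitters' processing notes, Trimmomatic 0.36, STAR 2.7, HTSeq 0.11.2 and the build mm10 were used; for the strand setting and annotation release the sources used here say nothing. Summary lines (29.0% to 44.2% of each table's total) were left out.

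The quasi-likelihood F test of edgeR 4.0.16 (R 4.3.3) was run on the counts after filterByExpr (15663 genes kept) and TMM scaling, with all 6 libraries in 1 model (3 residual degrees of freedom, biological coefficient of variation 6.00%). P-values were adjusted by Benjamini-Hochberg over all genes, with a threshold of 0.05. Levels are TMM-scaled CPM, and SE is the log2 fold change divided by the root of F. Positions, exon numbers and overlaps came from GENCODE M21 (GRCm38), in which all 78 genes and 97.93% of symbols were found. Libraries of a group differed beyond sampling noise (chi-square per degree of freedom 3.19 in WT, 6.48 in KO and 11.1 in D395A).

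Named genes were those with the largest called changes and a mean of 2 CPM or more in the higher group: against WT 6 each way of Mrpl and 5 of Mrps, between the lines 4 and 3, and against WT 2 each way from each pathway list. Always named were 9 pathway or regulator genes, members with a role or place of their own, those failing the filter, those called in opposite directions, and the highest and lowest per length. A gene of a pathway list that this rule names is not reported here. Members and lists were chosen with earlier results of these data known. Alternatives were RLE factors, library totals, DESeq2 1.42.0, limma-voom 3.58.1, other count filters, leaving out Rn45s, a replicate block, the 2 groups compared only, leaving out each library, chromosomes 8 and 11, or genes with opposite-strand overlap. Counts for 6 libraries were simulated from gene means over all groups, with 196 of 15321 tested genes changed 2-fold in KO. For KO against WT, 80.1% of the changed genes were called and 3.68% of calls were false. In the data 33.6% of genes were called higher and 32.6% lower in KO, so these rates need not hold there.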

Additional observations from a re-analysis of the deposited data

Results flagged for a closer look

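The lines differed in direction for 4 genes, each called higher than WT in one line and lower in the other. These opposite calls, with a call between the lines, chose the genes. The direct comparison of D395A with KO thus gives the size of the difference and is no separate support for it. The difference was -1.14 for Mrpl10, -1.33 for Mrpl45, -0.89 for Mrps5 and 0.53 for Mrps25 on the log2 scale (edgeR adjusted p = 2.6e-08, 3.1e-09, 3.3e-07 and 1.9e-04). Every library of D395A lay on the other side of both KO libraries for each of the 4. With each library left out in turn the difference ranged from -1.18 to -1.10 for Mrpl10, -1.33 to -1.32 for Mrpl45, -0.94 to -0.85 for Mrps5 and 0.42 to 0.63 for Mrps25. Neighbouring genes within 500 kb had medians of -1.01, -1.04, -0.81 and 0.36 for the same comparison. The fall of Mrps25 in KO is the least certain of the calls (adjusted p = 0.048, and 0.096 with DESeq2).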

How the results depend on the processing

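Over the alternatives, 197 of 204 counts of Mrpl or Mrps genes called stayed within 1.5 times the reported count, and 4 of 102 medians moved by more than the median SE of their genes. Of 3462 values of named genes 91 lost and 29 gained a call, and 0 of those called changed sign. For KO against WT, the Mrps median was 0.17 with no filter on low counts, where Mrps10 enters, and 0.19 to 0.28 with a library left out, lowest without WT replicate 2. Without genes that overlap an exon on the opposite strand, 8 Mrpl genes were lower in KO (median 0.16) and 10 in D395A (median 0.12) than in WT, and 6 Mrpl and 3 Mrps genes were higher in D395A than in KO. For the latter comparison, Mrps genes called lower numbered 8 to 13 and Mrpl genes called lower 9 to 16 with a library left out (lowest without KO replicate 2 and D395A replicate 2), and 3 Mrps genes were higher without chromosomes 8 and 11, where fewer genes are counted. Calls held in every such refit for 48 of 56 genes (KO against WT), 49 of 57 (D395A against WT) and 26 of 44 (D395A against KO). Replicate numbers did not pair the libraries: deviations of libraries with the same number correlated at 0.01 (WT and KO), 0.01 (WT and D395A) and -0.21 (KO and D395A). With the replicate block the medians against WT were 0.08 (Mrpl) and 0.28 (Mrps) for KO, 0.02 and 0.01 for D395A, and 10220, 10843 and 7832 genes were called in all. No scaling moved the median of all genes by 0.1. With 22859491 counts in D395A replicate 1, genes at a few CPM such as Mrps6 carry the widest errors.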
